A study of Capra hircus with 9 samples.

Results

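Integrins are receptors made of an alpha and a beta chain that hold cells to the extracellular matrix and to each other. Many of them bind a short arginine-glycine-aspartate motif in secreted ligands such as SPP1 (osteopontin), a phosphoprotein. In sheep, SPP1 is secreted by the uterine glands, and integrins with the ITGAV chain on the uterine lining and the conceptus are among its receptors, which has made this system a standard example of attachment at implantation. Described here are 9 integrin subunit genes and SPP1, that is 10 of the 25671 gene rows of a goat count table, chosen by symbol. The subunits are the alpha chains ITGA2, ITGA5, ITGA8 and ITGAV and the beta chains ITGB1, ITGB3, ITGB5, ITGB6 and ITGB8. SPP1 is a ligand of some integrins. All 10 passed the filter on low counts and were among the 16098 genes tested.

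Uterine samples of the Liaoning Cashmere breed (Capra hircus) were labelled day 6, day 16 and day 19 of the peri-implantation period, and each day had 3 libraries of polyadenylated RNA. No treatment or genotype is named, the starting event of the day count is not stated, and the series design text words the days as ages. Whether the libraries of 1 day represent different animals is not stated either, so the p-values reflect the spread between these samples, part or all of which may be technical. As tissue, the labels give uterus in 1 field, endometrial epithelium in the title and testis in the collection protocol. The epithelial genes EPCAM and CDH1 averaged 282 and 220 CPM (counts scaled to library size and composition) over the 9 libraries, and the smooth muscle genes ACTA2 and MYH11 averaged 6232 and 5737 CPM, so the libraries held RNA of smooth muscle as well as of epithelium. In such bulk samples, fewer cells of a type and less RNA per cell cannot be told apart.

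The libraries held 8712751 to 11074693 counts. Day 19 replicate 1 stood apart from the other day 19 libraries. Across genes, Spearman's rho of its log2 CPM was 0.894 and 0.897 with the other day 19 libraries and 0.945 to 0.963 with those of day 16, while day 19 replicates 2 and 3 had 0.983 with each other. It was the highest of the 3 day 19 libraries for 9 of the 10 genes described here (all except ITGB5, for which it was the lowest), against 43.9% of all genes tested. Ribosomal protein genes, 76 in number, took 2.79% of its counts, 7.43% and 6.38% of those of replicates 2 and 3, and 4.14% to 4.88% in the earlier libraries; the part of this in the results was not tested. Values of the 10 genes at day 19 are therefore also given without this library.

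**Figure D1:**
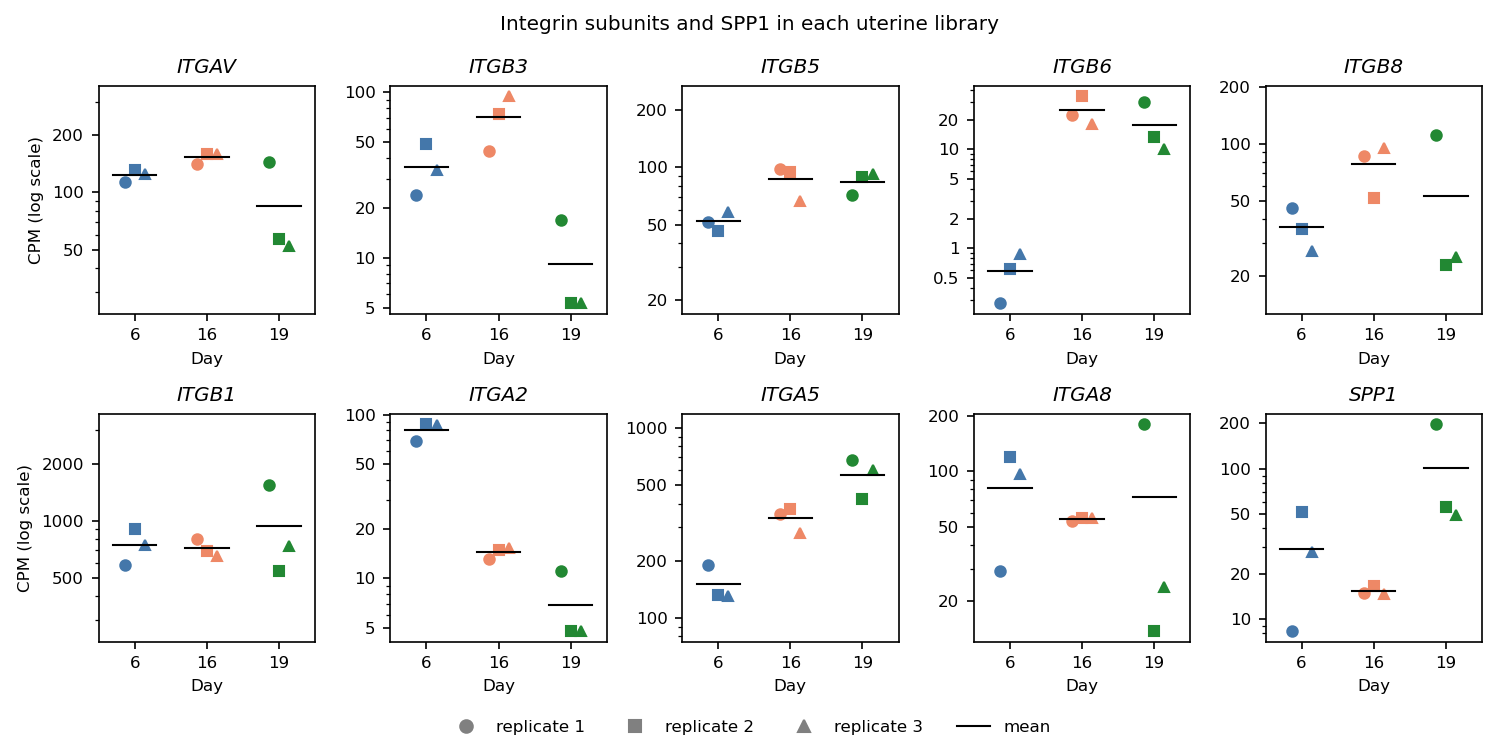
CPM on a log axis in each of the 9 libraries (points, shape by replicate) at days 6, 16 and 19, with the mean of each day as a line. ITGB6 and ITGA5 were higher and ITGA2 lower in every library of both later days than in any day 6 library, ITGB3 was lower in every day 19 library than in any earlier one, and the day 19 replicates were far apart for ITGA8, ITGAV, ITGB8 and SPP1.

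Across the 3 days, 6 of the 10 genes differed at an adjusted p under 0.05 (F test), where 19.6% of all genes tested did: ITGA2, ITGA5, ITGB3, ITGB5, ITGB6 and SPP1. ITGB6 was barely detected at day 6 and 41.2-fold higher at day 16. ITGA2 went the other way, being 5.61-fold lower at day 16 and 11.7-fold lower at day 19 than at day 6. ITGA5 was 2.22-fold higher at day 16 and 3.76-fold higher at day 19 than at day 6. ITGB3 fell late, to a level 7.66-fold lower at day 19 than at day 16. ITGB1, the common beta chain, did not pass in any comparison. The calls of ITGA2, ITGA5, ITGB3 and ITGB6 in the F test held in all 16 alternative analyses, whereas SPP1 was called in 10 of 16 and ITGB5 in 6 of 16. Not all pairwise calls held as well. The call of ITGA5 at day 16 against day 6 held in 13 of 17 alternatives, and that of ITGB3 at day 19 against day 16 in 7 of 17.

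**Figure D2:**
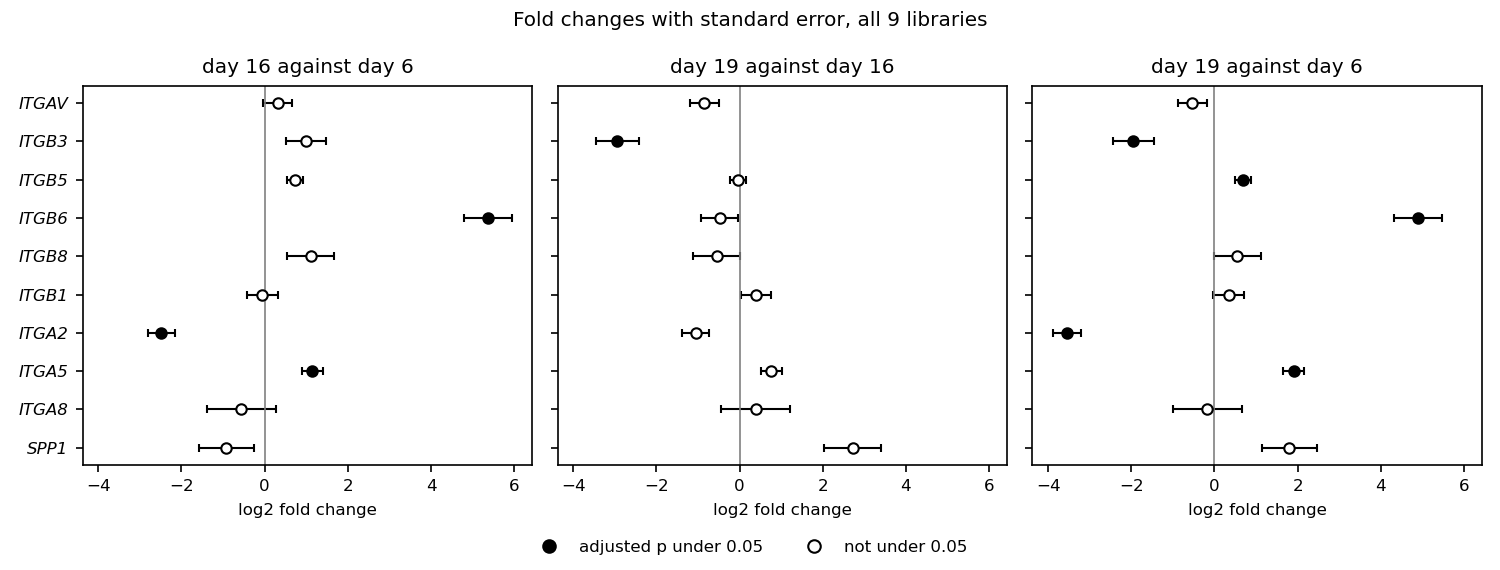
Log2 fold changes with their standard errors for the 3 comparisons, all from the fit to 9 libraries; filled points have an adjusted p under 0.05. The filled points are ITGB6, ITGA2 and ITGA5 for day 16 against day 6, ITGB3 for day 19 against day 16, and these 4 genes with ITGB5 for day 19 against day 6.

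Counted by comparison, 3 of the 10 genes were called at day 16 against day 6, where 8.86% of all genes tested were. Of these, 2 rose (5.12% of all genes) and 1 fell (3.74%). At day 19 against day 16, 1 of the 10 was called (1.2% of all genes) and it fell (0.683%). None rose in edgeR (0.516% of all genes); 5 of the 10 reached p under 0.05 before adjustment (24.5% of all genes) and 4 were called by DESeq2 (10.5% of the genes to which it gave an adjusted p). At day 19 against day 6, 5 of the 10 were called (22.9%), of which 3 rose (12.7%) and 2 fell (10.2%). The libraries of both days did not overlap for 6 of the 10 genes at day 16 against day 6 (38.7% of all genes; 5 higher, where 19.9% were, and 1 lower, 18.8%). They did not overlap for 4 at day 19 against day 16 (23.9%; 2 higher, 11.9%, and 2 lower, 12%) and for 5 at day 19 against day 6 (38.5%; 3 higher, 19.6%, and 2 lower, 18.9%). The median log2 fold change of the 10 genes was 0.52, -0.26 and 0.45 in these comparisons in turn, beside -0.00, 0.01 and 0.02 over all genes tested. The comparisons share libraries: each day enters 2 of the 3.

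ITGAV encodes the alpha chain that pairs with ITGB1, ITGB3, ITGB5, ITGB6 and ITGB8. It had 114, 131 and 125 CPM at day 6, 141, 160 and 158 CPM at day 16, and 146, 56.8 and 52.3 CPM at day 19. The day 16 libraries all lay above the day 6 ones, but the shift was small at a log2 fold change of 0.32 (SE 0.35; edgeR quasi-likelihood, Benjamini-Hochberg adjusted p = 0.715). At day 19, replicate 1 had a day 16 level and replicates 2 and 3 had the lowest levels of the series. Against day 16 the log2 fold change at day 19 was -0.85 (SE 0.35; edgeR adjusted p = 0.179), and without day 19 replicate 1 it was -1.48 (adjusted p = 4.61e-05). Against day 6 it was -0.54 (SE 0.35; adjusted p = 0.282), and without that library -1.16 (adjusted p = 6.8e-05).

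ITGB6 encodes the beta chain of an epithelial receptor that, with ITGAV, binds and activates latent TGF-beta. It had 3, 6 and 9 counts at day 6, 209, 301 and 198 counts at day 16, and 308, 132 and 95 counts at day 19. These correspond to 0.591 ± 0.3004 CPM at day 6, 24.7 ± 8.54 CPM at day 16 and 17.7 ± 10.7 CPM at day 19 (SD, n = 3 each). The gene was thus barely detected at day 6 and present in every later library, with no overlap. The log2 fold change was 5.36 for day 16 against day 6 (SE 0.58; edgeR quasi-likelihood, Benjamini-Hochberg adjusted p = 0.000601), and the call held in all 17 alternatives. It was 4.89 for day 19 against day 6 (SE 0.57; adjusted p = 0.00061), with the call held in 17 of 17, and 4.29 without day 19 replicate 1. Day 16 and day 19 overlapped, with a log2 fold change of -0.48 for day 19 against day 16 (SE 0.44; adjusted p = 0.5004; -1.07 with adjusted p = 0.0247 without day 19 replicate 1).

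The level of ITGB6 was set beside those of epithelial markers. Of 15 listed epithelial markers, 13 are in the table; their levels summed to 1312-1466 CPM in day 6 libraries, 1704-1712 CPM in day 16 libraries and 1111-1703 CPM in day 19 libraries. Of these 13, 2 rose and 1 fell at day 16 against day 6 (5.12% and 3.74% of all genes tested). Among them were CLDN4, a tight junction claudin, at 5.64-fold, and the keratin KRT7 at -1.84 on the log2 scale. Leaving out day 19 replicate 1, 6 rose and 4 fell (10.7% and 9.67%). At day 19 against day 6, 2 rose and 4 fell (12.7% and 10.2%), and 5 and 4 without that library (27.2% and 27%). The part of the epithelial content in the ITGB6 levels was not tested. Within a library, ITGB6 had 0.167, 0.381 and 0.567 counts per 100 counts of CDH1 (E-cadherin, the adhesion protein of epithelial junctions) at day 6, 7.58, 9.95 and 6.36 at day 16, and 10.5, 7.14 and 8.80 at day 19. The ratio to CDH1, chosen after the values were seen, was therefore higher in all 6 later libraries than in any day 6 library, and days 16 and 19 overlapped. The same ratio to EPCAM, another epithelial surface protein, was 0.15-0.426 in day 6 libraries, 4.66-12.1 in day 16 libraries, and 14.2, 3.11 and 3.08 at day 19.

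ITGB3 encodes the beta chain that with ITGAV forms the SPP1 and vitronectin receptor long used in humans as a sign of uterine receptivity, and that on platelets pairs with ITGA2B. It had 23.9, 48.4 and 34.0 CPM at day 6, 43.9, 73.2 and 94.0 CPM at day 16, and 16.9, 5.29 and 5.29 CPM at day 19. Days 6 and 16 overlapped, and the log2 fold change of 0.99 (SE 0.48) did not pass (edgeR adjusted p = 0.28). Every day 19 library was below every earlier one. The log2 fold change was -2.94 for day 19 against day 16 (SE 0.52; edgeR quasi-likelihood, Benjamini-Hochberg adjusted p = 0.0449) and -1.95 for day 19 against day 6 (SE 0.50; adjusted p = 0.0216). Without day 19 replicate 1 these were -3.72 and -2.73, both called.

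The adjusted p of ITGB3 was close to the threshold. At day 19 against day 16 it was 0.0748 to 0.175 when any 1 of the 8 libraries other than day 19 replicate 1 was left out, at changes of -2.66 to -3.19. Against day 6 the adjusted p was 0.0768 when day 6 replicate 2 was left out and 0.0575 for replicate 3, and 0.0701 when day 19 replicate 2 was left out and 0.0692 for replicate 3. Platelets also carry ITGB3. Of 9 listed platelet markers 6 are in the table; PPBP, a platelet chemokine, had 1 count over all 9 libraries. ITGA2B, the platelet partner of ITGB3, had 9.28 ± 1.21 CPM at day 6, 15.8 ± 5.20 CPM at day 16 and 18.1 ± 7.72 CPM at day 19 (SD, n = 3 each) and was not called in any comparison.

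ITGB8 encodes the beta chain of another ITGAV receptor that activates latent TGF-beta. It had 45.9, 35.7 and 27.1 CPM at day 6, 86.7, 51.7 and 95.3 CPM at day 16, and 111, 23.1 and 25.2 CPM at day 19. Its day 16 libraries all lay above its day 6 libraries, at a log2 fold change of 1.10 (SE 0.56) that did not pass (adjusted p = 0.314 by edgeR's quasi-likelihood test, and 0.0166 when day 19 replicate 1 was left out). Day 19 replicate 1 had the highest level of the series and replicates 2 and 3 the lowest. The log2 fold change for day 19 against day 16 was -0.55 (SE 0.56; adjusted p = 0.541) and, without replicate 1, -1.68 (adjusted p = 0.00225). Against day 6 it was 0.55 (SE 0.56; adjusted p = 0.495) and turned to -0.58 without that library (adjusted p = 0.126).

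ITGB5 encodes a beta chain that with ITGAV binds vitronectin. It had 51.9, 46.1 and 58.2 CPM at day 6, 98.6, 94.7 and 66.4 CPM at day 16, and 71.3, 88.9 and 92.0 CPM at day 19. Every later library was above every day 6 library, while days 16 and 19 overlapped with a log2 fold change of -0.04 (SE 0.20; edgeR adjusted p = 0.906). It rose at day 19 against day 6 by 0.69 (SE 0.20; edgeR quasi-likelihood, Benjamini-Hochberg adjusted p = 0.034), or 1.61-fold, and by 0.81 without day 19 replicate 1. That call was lost without day 6 replicates 1 (0.102), 2 (0.124) or 3 (0.0688), day 16 replicate 2 (0.0519), or day 19 replicates 2 (0.0909) or 3 (0.095). For day 16 against day 6 the log2 fold change was 0.73 (SE 0.20, edgeR adjusted p = 0.0509). It passed in 5 of 17 alternatives. These were without day 16 replicate 3 (0.028), without day 19 replicate 1 (0.0103), DESeq2 (0.0156), limma voom (0.00529) and only the libraries compared (0.0182).

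Because ITGB3, ITGB5, ITGB6 and ITGB8 share the ITGAV chain, their counts were also set against each other within each library, which needs no scaling between libraries. Counts are not divided by gene length, so only changes between days can be read from these shares. ITGB6 made up 0.228%, 0.472% and 0.73% of the summed counts of these 4 genes at day 6, 8.76%, 13.5% and 6.52% at day 16, and 13.1%, 10.1% and 7.58% at day 19. ITGB3 made up 19.6-37.0% in day 6 libraries, 17.5-34.4% in day 16 libraries and 3.99-7.38% in day 19 libraries. ITGB5 made up 68.1% and 69.4% in day 19 replicates 2 and 3, but 31.1% in replicate 1, against 24.3% to 48.4% in the 6 earlier libraries. A share also moves when the other genes of the sum change. The 4 genes summed to 2229 to 3035 counts in day 16 libraries and to 1306 and 1253 in day 19 replicates 2 and 3. The CPM of ITGB5 itself overlapped between days 16 and 19. The ITGB6 share was therefore higher in every later library than in any day 6 library, and the ITGB3 share was lower in every day 19 library than in any earlier one.

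**Figure D3:**
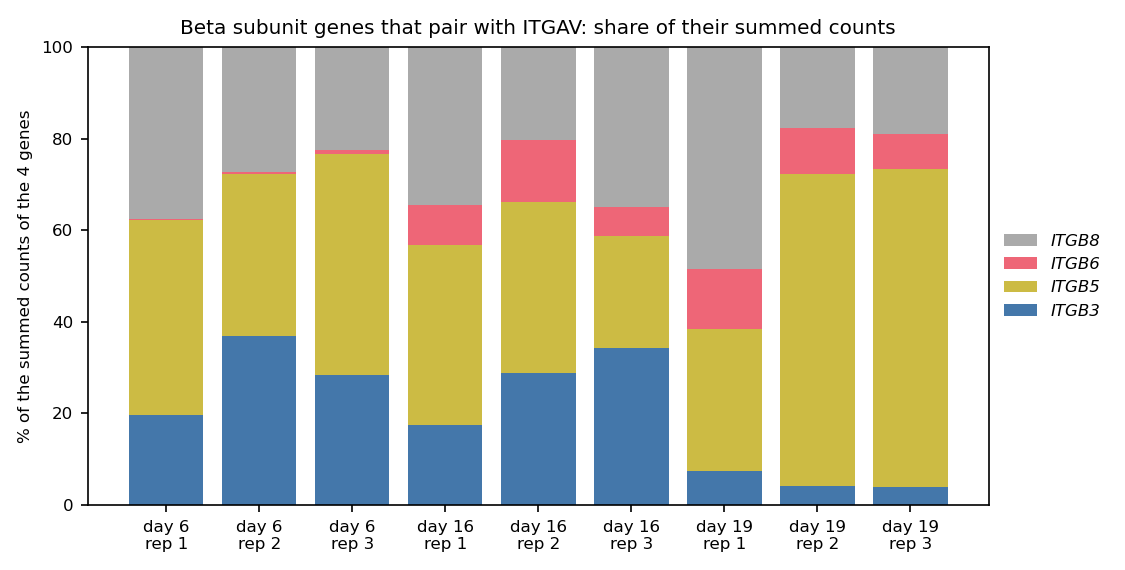
Stacked bars give, for each of the 9 libraries, the percentage of the summed counts of ITGB3, ITGB5, ITGB6 and ITGB8 taken by each gene. ITGB6 is under 1% in the day 6 bars and 6.52% to 13.5% in the later ones, ITGB3 is 7.38% or less in the day 19 bars, and ITGB8 is 48.4% in day 19 replicate 1 beside 17.7% and 19.0% in replicates 2 and 3.

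Set against ITGAV itself, the day 19 libraries were alike for some of these genes. ITGB6 had 0.244, 0.473 and 0.704 counts per 100 ITGAV counts at day 6, 15.6, 21.5 and 11.3 at day 16, and 20.6, 23.2 and 19.2 at day 19. ITGB3 had 21.0, 37.1 and 27.3 per 100 ITGAV counts at day 6, 31.1, 45.9 and 59.3 at day 16, and 11.6, 9.31 and 10.1 at day 19. For both genes the day 19 libraries were close together on this scale, although their CPM differed by 2.98 times for ITGB6 and 3.20 times for ITGB3 between the highest and the lowest. ITGB5 was not alike on it, with 49.0, 156 and 176 counts per 100 ITGAV counts at day 19. ITGB8 had 76.2, 40.6 and 48.2 there, and ITGB1 had 1065, 960 and 1405.

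ITGB1 encodes the most widely shared beta chain, the partner of ITGA2, ITGA5, ITGA8 and many other alpha chains. It had 585, 900 and 748 CPM at day 6, 800, 697 and 656 CPM at day 16, and 1550, 545 and 734 CPM at day 19. The days overlapped in every comparison, and the log2 fold changes were -0.05, 0.39 and 0.34 for day 16 against day 6, day 19 against day 16 and day 19 against day 6 (SE 0.37 each; edgeR quasi-likelihood, Benjamini-Hochberg adjusted p = 0.965, 0.506 and 0.517). Without day 19 replicate 1, the changes at day 19 turned to -0.15 against day 16 and -0.21 against day 6, neither called.

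ITGA2 encodes the alpha chain of a collagen and laminin receptor. It had 69.2, 87.4 and 85.9 CPM at day 6, 13.1, 14.8 and 15.3 CPM at day 16, and 11.2, 4.79 and 4.76 CPM at day 19. The 3 days did not overlap, and each was lower than the one before. The log2 fold change was -2.49 for day 16 against day 6 (SE 0.32; edgeR quasi-likelihood, Benjamini-Hochberg adjusted p = 0.00166) and -3.54 for day 19 against day 6 (SE 0.34; adjusted p = 0.000235), with both calls held in all 17 alternatives (-4.06 at day 19 against day 6 without day 19 replicate 1). Day 19 against day 16 gave -1.06 (SE 0.32, edgeR adjusted p = 0.108). It passed without day 19 replicate 1 (-1.58, edgeR adjusted p = 0.000139), in DESeq2 (adjusted p = 0.0295) and in limma voom (adjusted p = 0.000794). Within libraries, ITGA2 had 11.8, 9.71 and 11.5 counts per 100 ITGB1 counts at day 6, 1.63, 2.12 and 2.34 at day 16, and 0.721, 0.879 and 0.648 at day 19. ITGB1 was not called in any comparison, so this ratio largely repeats the fall of ITGA2 itself.

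ITGA5 encodes the alpha chain of the main fibronectin receptor. It had 190, 132 and 131 CPM at day 6, 351, 372 and 281 CPM at day 16, and 681, 422 and 600 CPM at day 19. The 3 days did not overlap, and each was higher than the one before. The log2 fold change was 1.15 for day 16 against day 6 (SE 0.25; edgeR quasi-likelihood, Benjamini-Hochberg adjusted p = 0.02) and 1.91 for day 19 against day 6 (SE 0.26; adjusted p = 0.00107), the second called in all 17 alternatives and 1.77 without day 19 replicate 1. At day 16 the call was lost without day 6 replicates 2 (0.097) or 3 (0.107) and without day 16 replicates 1 (0.0744) or 2 (0.082), at changes of 1.05 to 1.11. Against day 16 the change at day 19 was 0.76 (SE 0.25, edgeR adjusted p = 0.121), or 0.62 without day 19 replicate 1 (edgeR adjusted p = 0.0435). It was also called in DESeq2 (adjusted p = 0.0408) and in limma voom (adjusted p = 0.0336). Its ligand gene FN1 had 768 ± 58.9 CPM at day 6, 733 ± 164 CPM at day 16 and 527 ± 363 CPM at day 19 (SD, n = 3 each).

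ITGA8 encodes the alpha chain of a receptor for nephronectin (NPNT) and is known from smooth muscle and related contractile cells. It had 29.0, 119 and 96.6 CPM at day 6, 54.3, 56.2 and 55.8 CPM at day 16, and 180, 13.8 and 23.8 CPM at day 19. The day 16 libraries were nearly identical, those of day 6 differed by 4.12 times and those of day 19 by 13.1 times, so the days overlapped and no comparison passed (edgeR quasi-likelihood, Benjamini-Hochberg adjusted p = 0.811 for day 16 against day 6, 0.785 for day 19 against day 16 and 0.897 for day 19 against day 6). Without day 19 replicate 1 the log2 fold change was -1.55 against day 16 (adjusted p = 0.0531) and -2.10 against day 6 (adjusted p = 0.0146), while with all libraries it was 0.39 and -0.17. The smooth muscle gene MYH11, the heavy chain of smooth muscle myosin, had 2428, 9412 and 7112 CPM in the day 6 libraries, and ITGA8 had 1.19, 1.27 and 1.36 counts per 100 MYH11 counts in them. The ratio was 1.06, 0.93 and 0.884 at day 16, and 3.28, 0.343 and 0.419 at day 19. ITGA8 thus followed MYH11 over the day 6 and day 16 libraries and parted from it at day 19 in both directions. All 12 listed smooth muscle markers are in the table and their levels summed to 8510-31190 CPM in day 6 libraries, 19799-20899 CPM in day 16 libraries and 24734-42769 CPM in day 19 libraries. Of 11 tested, 2 rose and 0 fell at day 19 against day 6 (12.7% and 10.2% of all genes tested). These were DES (3.17-fold), which encodes the filament protein desmin, and SMTN (2.26-fold). Without day 19 replicate 1, 2 rose and 1 fell (27.2% and 27%). The part of the muscle content in the ITGA8 levels was not tested.

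SPP1 had 8.26, 51.3 and 27.8 CPM at day 6, 14.7, 16.6 and 14.7 CPM at day 16, and 198, 55.6 and 49.4 CPM at day 19. The day 6 libraries differed by 6.21 times and enclosed the day 16 ones. All 3 day 19 libraries were above all day 16 libraries, and day 19 replicate 1 was the highest of the series. The log2 fold change was -0.92 for day 16 against day 6 (SE 0.66; edgeR quasi-likelihood, Benjamini-Hochberg adjusted p = 0.518), 2.72 for day 19 against day 16 (SE 0.69; adjusted p = 0.0771) and 1.80 for day 19 against day 6 (SE 0.66; adjusted p = 0.0784). SPP1 differed across the 3 days in the F test (edgeR adjusted p = 0.0366). That call was lost without day 6 replicate 3 (0.0846), day 16 replicates 1 (0.0907), 2 (0.0837) or 3 (0.0964) or day 19 replicate 1 (0.0725).

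Day 19 against day 16 was called for SPP1 without day 19 replicate 1 (log2 fold change 1.79, edgeR adjusted p = 0.0388). With all libraries it was called in DESeq2 (adjusted p = 0.000945) and in limma voom (adjusted p = 0.0401). Against day 6 the change at day 19 was 0.87 without that library (edgeR adjusted p = 0.232), and DESeq2 called it with all libraries (adjusted p = 0.0203). SPP1 is also made by macrophages. Of 14 listed macrophage markers 13 are in the table, with MARCO at 7 counts over the 9 libraries; summed, they had 343-766 CPM in day 6 libraries, 591-903 CPM in day 16 libraries and 1034-1666 CPM in day 19 libraries. Of 12 tested, 8 rose and 1 fell at day 19 against day 6 (12.7% and 10.2% of all genes tested). Those higher included AIF1, a calcium-binding protein of macrophages, at 6.53-fold and the lipopolysaccharide co-receptor CD14 at 4.11-fold. The complement chain C1QC, at 3.74-fold, and the Fc receptor chain FCER1G, at 3.33-fold, were others. MRC1 was the one that fell, by 1.57 on the log2 scale (SE 0.34). At day 19 against day 16 edgeR called 0 of 12 (1.2% of all genes), with 8 at an unadjusted p under 0.05 (24.5%) and 4 in DESeq2 (10.5%). Without day 19 replicate 1, 7 rose and 1 fell there (21.6% and 23.1%). Both SPP1 and the macrophage sum were higher in every day 19 library than in any day 16 library. Within days the order differed: day 19 replicate 1 had the highest SPP1 and, at 1034 CPM, the lowest macrophage sum of its day, and day 6 replicate 1 had the lowest SPP1 and, at 766 CPM, the highest sum of its day, whereas day 16 replicate 2 had the highest SPP1 and, at 903 CPM, the highest sum of its day. The part of macrophages in the SPP1 levels was not tested.

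**Figure D4:**
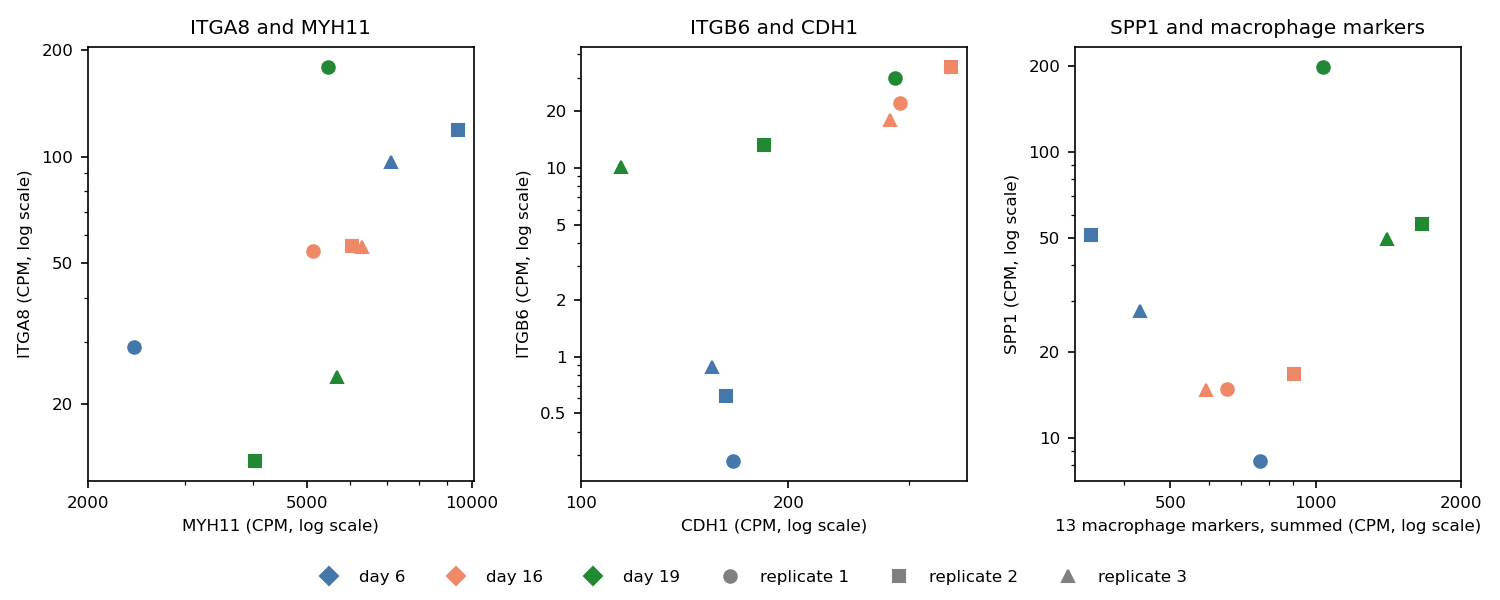
Each point is 1 of the 9 libraries (colour by day, shape by replicate) on log axes in CPM, with ITGA8 against MYH11, ITGB6 against CDH1, and SPP1 against the summed level of 13 macrophage markers. ITGA8 rises with MYH11 over days 6 and 16 and spreads widely at day 19. The day 6 libraries lie below all others for ITGB6. Their CDH1 levels (155 to 166 CPM) are below those of day 16 (281 to 345 CPM) and of day 19 replicates 1 and 2. They are above that of day 19 replicate 3 (114 CPM). SPP1 is highest in day 19 replicate 1, where the macrophage sum is 1034 CPM.

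Leaving out day 19 replicate 1 changed most of the day 19 picture. At day 19 against day 16, 7 of the 10 genes were then called (44.7% of all genes), ITGA5 and SPP1 higher (21.6% of all genes) and ITGA2, ITGAV, ITGB3, ITGB6 and ITGB8 lower (23.1%). Against day 6, 7 were called at day 19 (54.2%), ITGA5, ITGB5 and ITGB6 higher (27.2%) and ITGA2, ITGA8, ITGAV and ITGB3 lower (27%). At day 16 against day 6, which this library enters by way of dispersion, filtering and scaling, 5 were called (20.4%), ITGB5 and ITGB8 joining ITGA5 and ITGB6 among the higher (10.7%) and ITGA2 staying the lower one (9.67%). Direction was kept for ITGA2, ITGA5, ITGAV, ITGB3, ITGB6 and SPP1 in both day 19 comparisons.

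**Figure D5:**
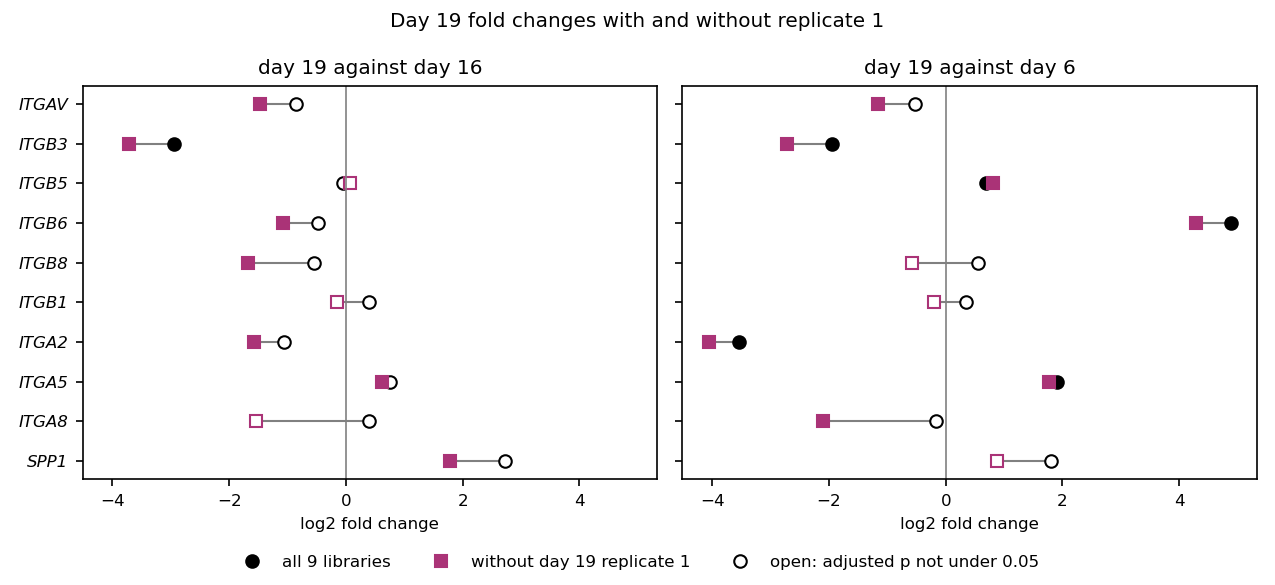
Log2 fold changes of the 10 genes for day 19 against day 16 and day 19 against day 6, with all 9 libraries (circles) and without day 19 replicate 1 (squares); filled symbols have an adjusted p under 0.05. ITGA8 moves furthest, with -1.55 without the library and 0.39 with it against day 16, and -2.10 and -0.17 against day 6, ITGB1 and ITGB8 cross 0 against day 6, and ITGB3, ITGA2 and ITGA5 keep their direction.

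Among the other integrin subunits, of 17 listed, 16 are in the table and were tested. At day 16 against day 6, 1 rose and 1 fell (5.12% and 3.74% of all genes tested). At day 19 against day 6, 1 rose and 3 fell (12.7% and 10.2%). At day 19 against day 16 edgeR called 0 of 16 (1.2% of all genes), with 6 at an unadjusted p under 0.05 (24.5%). There, 1 was called in DESeq2 (10.5%) and 5 without day 19 replicate 1 (44.7%). ITGA3, the alpha chain of a laminin receptor of epithelia, rose 2.32-fold at day 16 and 1.96-fold at day 19 against day 6. ITGA9, whose receptor binds SPP1 and tenascin in other species, fell by 0.78 at day 16 and by 1.08 at day 19 on the log2 scale (SE 0.19 each). ITGA6, the laminin-binding partner of ITGB4 in hemidesmosomes, fell by 1.90 (SE 0.30) at day 19 against day 6, with 194 ± 5.40 CPM at day 6, 94.1 ± 4.04 CPM at day 16 and 51.8 ± 24.6 CPM at day 19 (SD, n = 3 each), and the collagen-binding ITGA11 fell by 1.17 (SE 0.25).

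Of 38 listed matrix ligands and TGF-beta partners of these receptors, 30 were tested. At day 16 against day 6, 2 rose and 1 fell (5.12% and 3.74% of all genes tested). At day 19 against day 16 none rose and 2 fell (0.516% and 0.683%), and at day 19 against day 6, 4 rose and 4 fell (12.7% and 10.2%). Without day 19 replicate 1 these were 6 and 4 (10.7% and 9.67%), 1 and 12 (21.6% and 23.1%), and 5 and 10 (27.2% and 27%). The matricellular genes CTGF and CYR61, whose products bind several integrins, rose 5.0-fold and 4.58-fold at day 16 and 7.27-fold and 3.32-fold at day 19 against day 6. CTGF had 36.7 ± 8.42 CPM at day 6, 183 ± 43.1 CPM at day 16 and 267 ± 15.6 CPM at day 19 (SD, n = 3 each). ADAM12, a membrane metalloprotease with an integrin-binding disintegrin domain, fell by 1.79 (SE 0.21) at day 16 against day 6, by 1.35 (SE 0.21) at day 19 against day 16 and by 3.14 (SE 0.22) at day 19 against day 6. EDIL3, a secreted ligand of ITGAV receptors, fell by 1.56 (SE 0.29; edgeR adjusted p = 0.0468) at day 19 against day 16. Vitronectin (VTN) and bone sialoprotein (IBSP) had 2 counts each over the 9 libraries.

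Inside the cell, integrins are switched on by talins and kindlins and linked to actin through adaptor proteins. Of 34 listed genes of this machinery 32 were tested. At day 16 against day 6, 1 rose and 1 fell (5.12% and 3.74% of all genes tested). At day 19 against day 16 none rose and 1 fell (0.516% and 0.683%), and at day 19 against day 6, 4 rose and 2 fell (12.7% and 10.2%). Without day 19 replicate 1 these were 6 and 2 (10.7% and 9.67%), 6 and 9 (21.6% and 23.1%), and 9 and 8 (27.2% and 27%). TLN2, the second talin gene, fell by 1.07 (SE 0.21) at day 16 against day 6 and by 1.18 (SE 0.21; edgeR adjusted p = 0.0449) at day 19 against day 16, with 106 ± 8.99 CPM at day 6, 50.8 ± 7.91 CPM at day 16 and 22.3 ± 5.40 CPM at day 19 (SD, n = 3 each). Between day 19 and day 6, the focal adhesion adaptor PARVB fell by 2.22 (SE 0.33), the tetraspanin CD81, a membrane partner of integrins, rose 3.15-fold and the leukocyte kindlin FERMT3 rose 2.71-fold.

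Another SPP1 receptor and enzymes acting on SPP1 made up 6 tested genes. Against day 6, 1 rose at day 16 and 3 rose at day 19 (5.12% and 12.7% of all genes tested). None fell in edgeR (3.74% and 10.2%). For day 19 against day 16 edgeR called 0 of 6 (1.2% of all genes), with 4 at an unadjusted p under 0.05 (24.5%) and 2 in DESeq2 (10.5%). CD44, a hyaluronan receptor that also binds SPP1, rose 2.07-fold and FAM20C, the kinase that phosphorylates secreted proteins including SPP1, 1.87-fold at day 19 against day 6. Of the metalloproteases that cleave SPP1, MMP7 rose 2.45-fold at day 16 against day 6 and MMP9 rose 4.89-fold at day 19 against day 6, where MMP9 had 2.45 ± 0.651 CPM at day 19 and 0.492 ± 0.216 CPM at day 6 (SD, n = 3 each). ACP5, a tartrate-resistant acid phosphatase that can remove phosphate from SPP1, was chosen after its values were seen. It had 309, 161 and 197 CPM at day 6, 337, 187 and 186 CPM at day 16, and 1650, 399 and 247 CPM at day 19. No comparison called it (lowest edgeR adjusted p = 0.073, at day 19 against day 6). Like SPP1 it was highest in day 19 replicate 1, the highest library of its day for 43.9% of all genes tested.

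For each gene called in the F test, the genes with the most similar course were sought among 9786 others with a symbol and a mean log2 CPM of at least 3. Likeness was the root mean square difference of centred log2 CPM over the 9 libraries, which share their depth and composition, and is a description only. Nearest to ITGA2 was PAK3 at 0.21, followed by CDON at 0.29 and LDLRAD3 at 0.31, small beside the spread of ITGA2 about its own mean (1.55). Nearest to ITGA5 were RASSF1 at 0.17, MEDAG at 0.18 and EXOSC9 at 0.22 (own spread 0.82), and to ITGB5 MOGS at 0.14, SEMA4A at 0.15 and ZFYVE27 at 0.15 (0.38). The nearest to ITGB6 were SLC36A2 at 0.52, CMPK2 at 0.54 and ATF3 at 0.59 (own spread 2.29). ITGB3 had FAT4 at 0.51, ZFP57 at 0.53 and ABCG1 at 0.56 (own spread 1.40), and SPP1 had CLDN1 at 0.53, ADRA2A at 0.61 and RASD2 at 0.65 (1.31). The 10 genes were left out of this search, and none of the genes named was another integrin. Among the 10 genes, the smallest differences were those of ITGAV with ITGB8 at 0.55 and ITGAV with ITGB1 at 0.57. Neither was small beside the spread of ITGAV about its own mean, so these are not close courses.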

How the data were processed

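The authors deposited raw counts, whole numbers for each gene, in 1 column per library. Per the labels' protocols, poly(A) RNA was purified, cut with RNase III and ligated to adaptors. Sequencing was by Ion Proton, per the series design text. How reads were aligned and counted, on which build and annotation, and whether strand was used, is not given in the sources used here. No coordinates or sequences are given.

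Counts were scaled by TMM and filtered with filterByExpr in edgeR 4.0.16 (R 4.3.3), which left 16098 of 25671 genes. A robust quasi-likelihood model with the day as its only term was fitted to all 9 libraries. Calls were made at 0.05 after Benjamini-Hochberg adjustment across the whole table. The SE is the log2 change over the root of its F value. The fitting code was tested on simulated data. Alternatives were RLE and upper quartile scaling, no filter, a filter of 1 CPM in 6 libraries, DESeq2 1.42.0, limma 3.58.1 voom with sample quality weights, fitting only the libraries compared, the replicate number as a block, and leaving out each library.

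No libraries of a day agreed within sampling noise (chi-square per degree of freedom at least 9.86). CTGF and CYR61 stand for the listed CCN2 and CCN1. The 10 genes, the lists and the tests were chosen with earlier results of these data known. Named list genes are the called ones with the largest change, at most 4 per list; genes with levels set beside a result, and the within-library ratios, were chosen after the values were seen. Some genes that this rule names are not reported here.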

Additional observations from a re-analysis of the deposited data

How the results depend on the processing

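Of 510 log2 fold changes of the 10 genes under alternatives, 435 kept direction and side of the threshold, 29 were called in addition, 28 lost the call and 18 changed sign. Genes called at day 16 against day 6 numbered 1427, with 2238 in DESeq2, 3783 in voom and 3092 from only the libraries compared; 3 of the 10 were called, with 6 in voom and 5 from only those libraries. Between day 19 and day 16, 193 genes were called, with 1681 in DESeq2 and 7291 in voom, and 1 of the 10, with 4 in DESeq2 and 7 in voom. The replicate block called 0 genes and 0 of the 10 there in edgeR (3572 and 5 at an unadjusted p under 0.05), and only the libraries compared 0 and 0 (2726 and 4). Day 19 against day 6 gave 3684 genes called, with 9405 in voom and 2357 from only the libraries compared, and 5 of the 10, with 3 under the replicate block and 3 from only those libraries. The F test called 3156 genes, with 5011 in DESeq2 and 10557 in voom, and 6 of the 10, with 4 under the replicate block. The block ended the calls of ITGB3 (0.099999) at day 19 against day 16, of ITGB3 (0.0556) and ITGB5 (0.0758) at day 19 against day 6, and of SPP1 (0.0999) and ITGB5 (0.11) in the F test. Correlations of the deviations were -0.164 to 0.153 for same-numbered libraries and -0.134 to 0.200 for differently numbered ones. With 3 libraries a day these values cannot decide whether the numbers are pairs. The main fit does not pair them.

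Leaving out 1 library gave 664 to 3345 genes and 2 to 5 of the 10 at day 16 against day 6, 0 to 7331 and 0 to 7 at day 19 against day 16, 1928 to 8891 and 3 to 7 at day 19 against day 6, and 1416 to 9703 and 4 to 8 in the F test; each highest count of genes was without day 19 replicate 1. Signs turned for ITGB1 at day 16 against day 6 (-0.20 to 0.11), for ITGA8 (-1.55 to 0.88), ITGB1 (-0.15 to 0.68) and ITGB5 (-0.22 to 0.078) at day 19 against day 16, and for ITGA8 (-2.10 to 0.32), ITGB1 (-0.21 to 0.62) and ITGB8 (-0.58 to 0.91) at day 19 against day 6. In voom, ITGA8 (-1.49), ITGB1 (-0.14) and ITGB5 (0.044) turned at day 19 against day 16, and ITGB1 (-0.21) and ITGB8 (-0.35) at day 19 against day 6; ITGA8 was -0.041 under the block at day 19 against day 16. The cause was not tested. ITGB6 at day 6 rests on 18 counts in all.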

Other observations

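Markers of other cell types of the uterine wall were also counted. The 10 listed stromal fibroblast genes summed to 23515-24614 CPM in day 6 libraries, 13624-17875 CPM in day 16 libraries and 14556-21323 CPM in day 19 libraries. At day 16 against day 6, edgeR called 0 of them, with 2 at an unadjusted p under 0.05 (3403 of all 16098 genes tested). DESeq2 called 1 of them there, and 2238 over all genes. At day 19 against day 6 edgeR called 1 higher. Without day 19 replicate 1, that comparison had 1 higher and 4 lower. The 11 endothelial genes summed to 492-741 CPM, 630-719 CPM and 385-579 CPM at days 6, 16 and 19, and 2 fell at day 19 against day 6. Without day 19 replicate 1, 1 rose and 5 fell. Of all genes tested, 8.86% were called at day 16 against day 6. At day 19 against day 6, 12.7% rose and 10.2% fell, and 27.2% and 27% without day 19 replicate 1. Of 18 listed trophoblast genes 5 are in the table, at no more than 6.18 CPM in sum in any library.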
